A study of Zea mays with 6 samples.

Results

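The genes described here are 4 nuclear genes of the photosynthetic carbon cycle in maize bundle sheath cells: the C4 NADP malic enzyme gene (NADP-ME, Zm00001d000316), the phosphoenolpyruvate carboxykinase gene (PEPCK, Zm00001d028471) and the Rubisco small subunit genes ssu1 (Zm00001d052595) and ssu2 (Zm00001d004894). They were chosen by function, by identifier, from the 46430 genes counted, and all 4 were among the 22135 genes that passed the filter on low counts. The names came with that choice of identifiers, since neither the count files nor the RefSeq gene table used here ties a name to them.

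RNA came from the third leaf of seedlings of the maize genotypes W9706 and B73, both on day 7 of drought, with 3 libraries of each. B73 is the inbred line of the maize reference genome and is labelled wild type; of W9706 the labels give the name alone. Seedlings of both were grown in soil in beakers. Nothing in the labels tells whether the replicates were separate plants or beakers, so p-values speak of the spread between these libraries alone, and that may be technical. No watered leaves were analysed here, so the comparison was W9706 against B73 under drought and gave no response to drought.

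In C4 leaves, mesophyll cells fix carbon dioxide into acids with 4 carbon atoms, which move to the bundle sheath cells around the veins. There decarboxylases release the carbon dioxide again beside Rubisco, the enzyme that fixes it in the Calvin cycle. Maize is grouped with the C4 plants whose main decarboxylase is the chloroplast NADP malic enzyme, which acts on malate; PEPCK, in the cytosol, acts on oxaloacetate. Rubisco is built of large subunits encoded in the plastid genome and small subunits encoded by a nuclear gene family.

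All 4 genes were lower in W9706 than in B73 in the edgeR test across all genes, as were 19.0% of the 22135 genes tested and 55.0% of the 100 genes of highest mean level. PEPCK stood at 30.0% of its B73 level in W9706, ssu1 at 42.5%, NADP-ME at 51.0% and ssu2 at 57.3%. Together they took 0.643%, 0.668% and 0.395% of all gene counts in W9706 replicates 1 to 3, against 1.18%, 0.979% and 1.30% in B73 replicates 1 to 3. The lines did not overlap in this share, most of which was counts of NADP-ME and PEPCK. These genes alone took 0.591%, 0.614% and 0.348% in W9706 replicates 1 to 3. In B73 replicates 1 to 3 they took 1.06%, 0.912% and 1.22%. For each of the 4 genes, too, every W9706 library lay below every B73 library once scaled to depth, as in 25.8% of genes tested. Whole leaves were sequenced, so fewer bundle sheath cells and less of these RNAs per cell cannot be told apart.

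Libraries held 25054048 to 32088105 gene counts in W9706 and 21084151 to 26631103 in B73. Unmapped reads made up 13.0% to 13.5% of reads in W9706 and 12.7% to 13.8% in B73, and reads outside annotated genes made up 4.18% to 4.33% in W9706 and 3.68% to 3.79% in B73. The gene identifiers are those of B73 gene models, and the part of reads of W9706 that fail to align to them in these differences was not tested. Counting error was small for these genes, at 0.259% to 1.40% of a count, so the spread between libraries and not depth set the precision. The first strand column held 46.9% to 50.7% of each gene's stranded counts, in a library type that does not mark strand, so reads of an antisense partner could not be told apart.

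NADP-ME, the gene of the main decarboxylase, had 84504, 89257 and 81954 counts in W9706 replicates 1 to 3, against 132606, 107050 and 120045 in B73 replicates 1 to 3. Scaled to library size with TMM factors (trimmed mean of M values), these were 3037, 3154 and 2321 CPM (counts scaled to the library total) in W9706, against 5503, 4809 and 6376 CPM in B73. Every W9706 library lay below every B73 library, and the nearest pair, W9706 replicate 2 and B73 replicate 2, differed 1.52-fold. W9706 averaged 2838 ± 451 CPM, against 5563 ± 786 CPM for B73 (± SD, n = 3 each). The log2 fold change, W9706 over B73, was -0.97 ± 0.20 (SE), with a 95% interval of -1.43 to -0.52 and an edgeR quasi-likelihood adjusted p of 0.0072 over all genes tested. In both lines the gene was among the most counted: its rank among all genes by count was 14, 14 and 16 in W9706 and 13, 11 and 9 in B73.

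PEPCK, the gene of the second decarboxylase, showed the lowest ratio of the 4. It had 63511, 68715 and 29744 counts in W9706 replicates 1 to 3, against 149251, 113245 and 136230 in B73 replicates 1 to 3, or 2283, 2428 and 842 CPM in W9706 against 6194, 5087 and 7236 CPM in B73. The lines did not overlap, with 2.10-fold between the nearest libraries and 8.59-fold between the farthest. W9706 replicate 3 stood well below the other W9706 libraries, which lay close together. The mean of W9706 was 1851 ± 877 CPM, against 6172 ± 1075 CPM for B73 (± SD, n = 3 each). The log2 fold change was -1.74 ± 0.39 (SE), with a 95% interval of -2.65 to -0.82 and an edgeR adjusted p of 0.0127. When W9706 replicate 3 was left out, it was -1.39 (edgeR adjusted p = 0.00261, in a range of 0.00261 to 0.0446 over the 14 alternatives run with edgeR; DESeq2, the other alternative, gave an adjusted p of 1.05e-06).

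The gap between W9706 replicate 3 and the other W9706 libraries in PEPCK was among the larger gaps of that library. Its log2 CPM there minus the mean of the other W9706 libraries was -1.48, and 0.904% of the genes tested had a lower difference there. PEPCK ranked 22 and 19 by count in W9706 replicates 1 and 2 and 86 in replicate 3, against ranks of 12, 10 and 8 in B73. The SD of log2 CPM of PEPCK within W9706 was 0.86, above that of 96.8% of genes tested, and within B73 it was 0.25, above that of 63.5%. The other 3 genes were also lowest in replicate 3 among the W9706 libraries, by smaller differences of -0.42 for NADP-ME, -0.16 for ssu1 and -0.21 for ssu2. That library was the lowest of its line for 39.8% of genes tested. In B73 all 4 genes were lowest in replicate 2, which was the lowest of its line for 32.0% of genes tested.

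Rubisco small subunit transcripts were also lower in W9706. ssu1 had 7889, 8772 and 9345 counts in W9706 replicates 1 to 3, against 21820, 10470 and 12081 in B73 replicates 1 to 3, or 284, 310 and 265 CPM in W9706 against 906, 470.3 and 642 CPM in B73. The W9706 libraries lay close together and below all B73 libraries, of which replicate 1 stood highest. W9706 averaged 286 ± 22.7 CPM, against 673 ± 219 CPM for B73 (± SD, n = 3 each). The log2 fold change was -1.23 ± 0.23 (SE), with a 95% interval of -1.76 to -0.71 and an edgeR adjusted p of 0.00497. Leaving out the highest library, B73 replicate 1, gave a log2 fold change of -0.95 (edgeR adjusted p = 0.00747, in a range of 0.00238 to 0.02 over the 14 alternatives run with edgeR; DESeq2 gave an adjusted p of 3.01e-07).

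ssu2, the other small subunit gene, had 5136, 5318 and 5702 counts in W9706 replicates 1 to 3, against 9573, 5697 and 5261 in B73 replicates 1 to 3. Raw counts of the lines overlapped, since W9706 replicate 3 was the deepest library and B73 replicate 3 the shallowest. Scaled to depth the gene had 185, 188 and 161 CPM in W9706, against 397, 256 and 279 CPM in B73, and the lines did not overlap. The mean of W9706 was 178 ± 14.4 CPM, against 311 ± 75.7 CPM for B73 (± SD, n = 3 each). The log2 fold change was -0.80 ± 0.18 (SE), with a 95% interval of -1.21 to -0.40 and an edgeR adjusted p of 0.00945. By count ssu1 ranked 340 to 430 in W9706 and 111 to 268 in B73, and ssu2 ranked 685 to 855 in W9706 and 330 to 591 in B73. These ranks are of reads and not of transcripts, since no transcript length was used, and so they do not compare the level of one gene with that of another.

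**Figure D1:**
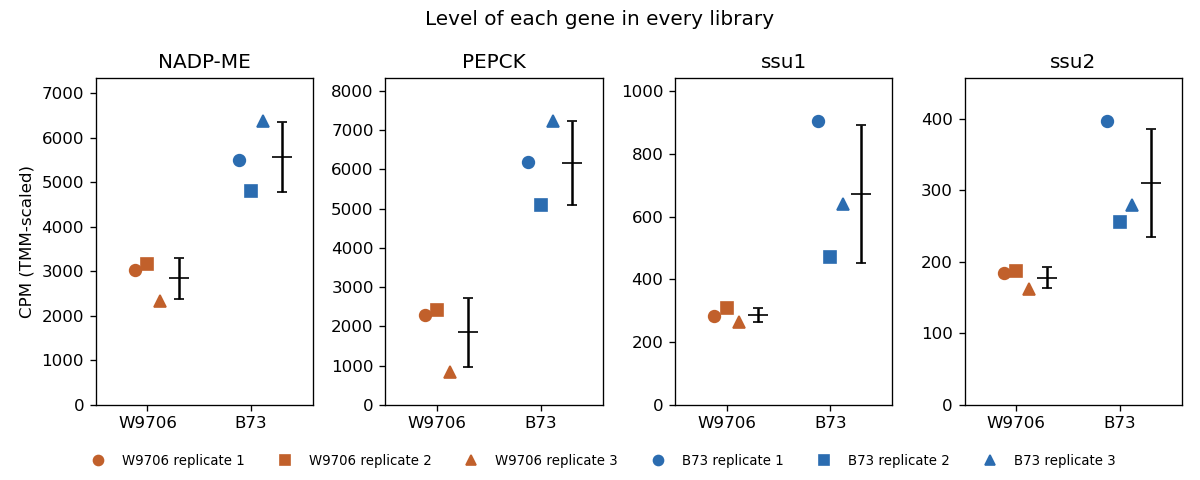
Level of NADP-ME, PEPCK, ssu1 and ssu2 in CPM (TMM-scaled, linear axes from 0 with a different range in each panel) in the 3 W9706 and the 3 B73 libraries. Each symbol is a library and the bars give the mean ± SD; in each panel all W9706 libraries lie below all B73 libraries, and PEPCK in W9706 replicate 3 (842 CPM) lies apart from replicates 1 and 2 (2283 and 2428 CPM).

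The spread between libraries was described for each gene and line. The small subunit genes had coefficients of variation of 7.95% for ssu1 and 8.09% for ssu2 in W9706, against 32.6% and 24.4% in B73. For the decarboxylases these were 15.9% for NADP-ME and 47.4% for PEPCK in W9706, against 14.1% and 17.4% in B73. Within B73 the small subunit genes were highest in replicate 1 and the decarboxylase genes in replicate 3. In W9706 all 4 genes were highest in replicate 2. With 3 libraries in each line no test of the spread was made.

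Ratios of 2 genes within a library need no scaling between libraries, and their difference between the lines does not depend on gene length. For each of the 6 pairs an exact permutation test (two-sided) was run, with Benjamini-Hochberg adjustment over the 6. With 3 libraries a line the smallest p of this test is 0.1, so no ratio could pass 0.05. Any ratio in which the lines do not overlap has that p. How often ratios of other genes separate the lines was not counted, so no ratio here can be called unusual. The 6 ratios also share the same genes. Of the decarboxylases, NADP-ME had more reads than PEPCK in every W9706 library and fewer in every B73 library, a comparison of reads and not of transcripts. NADP-ME had 1.33, 1.30 and 2.76 counts for each PEPCK count in W9706 replicates 1 to 3, against 0.888, 0.945 and 0.881 in B73 replicates 1 to 3. PEPCK thus gave 42.9%, 43.5% and 26.6% of the decarboxylase counts in W9706 and 53.0%, 51.4% and 53.2% in B73. The widest 95% binomial interval (exact Clopper-Pearson) of these shares ran from 26.4% to 26.9%, and such intervals cover counting error only.

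The log2 ratio of NADP-ME to PEPCK was 0.75 ± 0.62 in W9706 and -0.14 ± 0.06 in B73 (SD, n = 3 each), a difference of 0.90 with an exact permutation p of 0.1 (0.2 adjusted). The lines did not overlap, but the size of the difference rested in part on W9706 replicate 3, without which it was 0.54. The log2 ratio of PEPCK to ssu2 differed by -1.09 (exact permutation p of 0.1, 0.2 adjusted), with 2.38 to 3.69 in W9706 and 3.96 to 4.69 in B73. Without W9706 replicate 3 this difference was -0.66.

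The ratio of the small subunit genes did not overlap between the lines either. Within W9706 the SD of its log2 value was below that of NADP-ME to PEPCK (0.06 against 0.62). Within B73 it was above it (0.18 against 0.06). ssu1 gave 60.6%, 62.3% and 62.1% of the small subunit counts in W9706 replicates 1 to 3, against 69.5%, 64.8% and 69.7% in B73 replicates 1 to 3. The widest exact 95% binomial interval of these shares, for W9706 replicate 1, ran from 59.7% to 61.4%. The log2 ratio of ssu1 to ssu2 was 0.68 ± 0.06 in W9706 and 1.09 ± 0.18 in B73 (SD, n = 3 each), a difference of -0.40 with an exact permutation p of 0.1 (0.2 adjusted). Leaving out any 1 library gave differences of -0.51 to -0.35. Genes of this family resemble each other, and reads that align equally well to both are left out of counts of uniquely aligned reads. Both the levels and the ratio of ssu1 and ssu2 are therefore uncertain.

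The remaining 3 ratios overlapped between the lines. The log2 ratio of NADP-ME to ssu1 was 3.13 to 3.42 in W9706 and 2.60 to 3.35 in B73, a difference of 0.21 (exact permutation p of 0.6, 0.6 adjusted), which was -0.033 without B73 replicate 1. That of NADP-ME to ssu2 differed by -0.19 (exact permutation p of 0.5, 0.6 adjusted) and was between -0.39 (without B73 replicate 1) and -0.027 (without B73 replicate 3) when 1 library was left out. That of PEPCK to ssu1 differed by -0.69 (exact permutation p of 0.3, 0.45 adjusted), and by -0.25 without W9706 replicate 3. Overlap of the lines in these ratios does not show that the differences of the genes between the lines were equal.

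**Figure D2:**
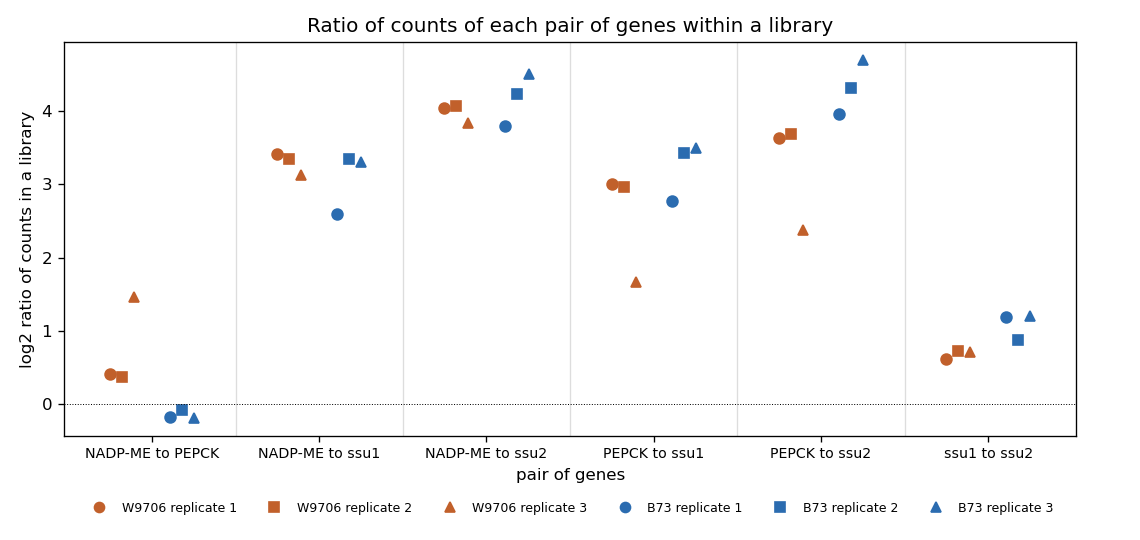
Log2 ratio of the counts of each pair of genes within a library (vertical axis), with W9706 libraries left of B73 libraries for each of the 6 pairs and each symbol a library. The lines do not overlap for NADP-ME to PEPCK, PEPCK to ssu2 and ssu1 to ssu2, and W9706 replicate 3 stands apart in the 3 ratios that involve PEPCK.

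Across all genes, 34.2% of the 22135 tested differed between the lines at an edgeR adjusted p under 0.05, 15.2% higher and 19.0% lower in W9706. All 4 genes were lower, with a median log2 fold change of -1.10, against 0.01 over all genes tested. Among the 100 genes of highest mean CPM, the share called lower was 55.0% and the median log2 fold change -0.66, so that lower counts in W9706 were common among abundant genes. NADP-ME and PEPCK are of these 100, at places 11 and 12 by mean CPM over all libraries; ssu1 and ssu2 stood at places 220 and 556. PEPCK had a lower log2 fold change than all but 6 of the other genes of that group, and NADP-ME than all but 31. Over all tested genes, 3.77% had a lower log2 fold change than PEPCK, 6.92% than ssu1, 10.1% than NADP-ME and 12.8% than ssu2. All W9706 libraries lay below all B73 libraries in 25.8% of the genes tested and in 69.0% of the 100 most abundant, as they did for each of the 4 genes.

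The direction of calls over all genes depended on scaling, that of the 4 genes did not. With library size alone 36.9% of genes were called higher in W9706 and 11.9% lower, and with upper quartile scaling 19.4% and 16.6%. Library size alone moved the median log2 fold change of all genes by 0.28, and the log2 fold changes of the 4 genes were then -1.45 for PEPCK, -0.95 for ssu1, -0.69 for NADP-ME and -0.52 for ssu2, all past the edgeR threshold. Relative to the median of all genes with TMM, PEPCK was at -1.75, ssu1 at -1.24, NADP-ME at -0.98 and ssu2 at -0.81. Such values hardly change with the scaling by construction, since a scaling moves all genes by about the same amount.

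**Figure D3:**
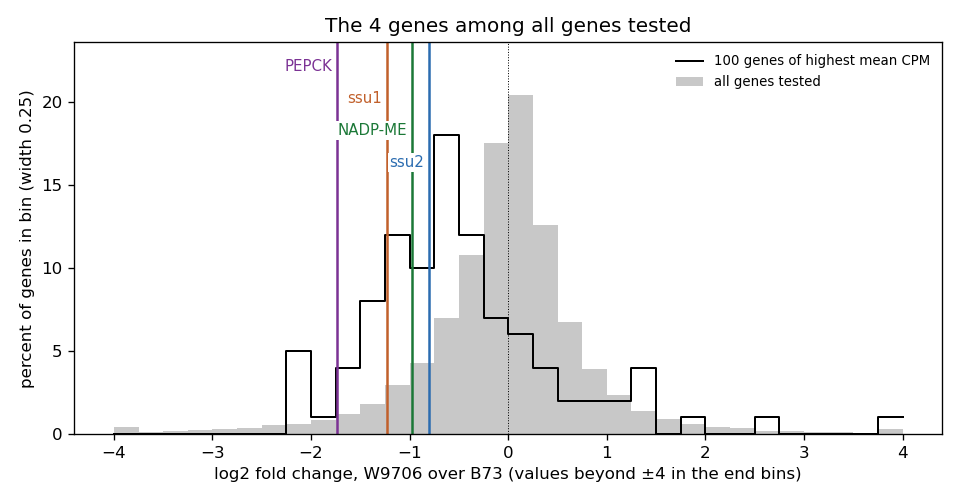
Percent of genes (vertical axis) by log2 fold change, W9706 over B73 (horizontal axis, bins of 0.25), for all 22135 genes tested (grey bars) and the 100 genes of highest mean CPM (black line). Coloured lines mark PEPCK (-1.74), ssu1 (-1.23), NADP-ME (-0.97) and ssu2 (-0.80), all left of 0 and within the range of the 100 most abundant genes.

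Each gene kept its direction and its call in all 15 alternatives run for it, which changed the scaling, the filter, the test, the strand column or the libraries. Among them, DESeq2 called 17.6% of the genes it tested lower in W9706, and the fit with the replicate number as a block 20.2%. The log2 fold change of PEPCK ranged from -2.02 to -1.39, that of ssu1 from -1.42 to -0.95, that of NADP-ME from -1.10 to -0.69 and that of ssu2 from -0.94 to -0.52.

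**Figure D4:**
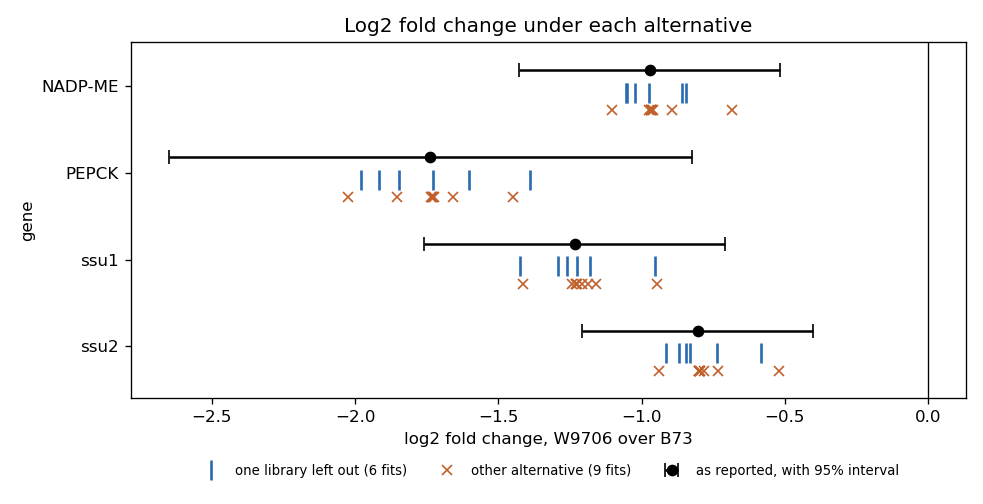
Log2 fold change, W9706 over B73 (horizontal axis), of each gene as reported with its 95% interval (black), with each of the 6 libraries left out (blue) and under the 9 other alternatives (orange). All values lie below 0; those of PEPCK spread most, from -2.02 to -1.39.

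Profiles over the 6 libraries were compared by Pearson's correlation of log2 CPM, as a description, since the libraries form 2 groups by line and all 4 genes were lower in W9706. ssu1 and ssu2 were most alike, with r = 0.988, and of 12562 other genes whose mean reached 10 CPM, 15 were closer to ssu1 than ssu2 was and 21 closer to ssu2 than ssu1 was. NADP-ME and PEPCK had r = 0.975, with 351 genes closer to NADP-ME and 161 closer to PEPCK. Between a decarboxylase and a small subunit gene r was 0.861 to 0.913.

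Single genes without a name in the sources used here came closer still. The gene closest to ssu1 was Zm00001d023376, with r = 0.999, which averaged 1534 ± 100.1 CPM in W9706, against 3415 ± 1026 CPM in B73 (± SD, n = 3 each). The line difference of this gene on the log2 scale was -1.15 ± 0.23 (SE; edgeR adjusted p = 0.00675). The gene closest to NADP-ME was Zm00001d019173, with r = 0.998, which averaged 27.7 ± 1.32 CPM in W9706, against 35.4 ± 1.78 CPM in B73 (± SD, n = 3 each). The line difference of this gene was -0.36 ± 0.09 on the log2 scale (SE; edgeR adjusted p = 0.0149). Its values followed those of NADP-ME over the libraries, while the difference between the lines was smaller. Such likeness was common in these data: 983 genes had r above 0.95 with NADP-ME, 543 with PEPCK, 364 with ssu1 and 315 with ssu2.

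The large subunit of Rubisco could not be set beside the small subunits. Its plastid gene rbcL had 0, 1 and 2 counts in W9706 replicates 1 to 3 and 0 in each B73 library, where each small subunit gene had 5136 counts or more. A copy listed in the mitochondrial genome, rbcL-ct, had 4 counts over the W9706 libraries and 12 over the B73 libraries. Such counts are too few to give a level, and multimapping reads were listed as 0 in every library, so reads shared by both copies may be missing.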

How the data were processed

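RNA was measured in 3 W9706 and 3 B73 leaf libraries. The authors deposited whole-number counts per gene, in the layout of STAR's gene count table; STAR is named per the submitters' processing notes, and for its version, the build and the gene annotation the entry is: not given in the sources used here. The unstranded column was used and the 4 summary lines were left out of library sizes and tests. Counts of uniquely aligned reads make paralogs uncertain. The test across all genes was that of edgeR 4.0.16, run under R 4.3.3 (filterByExpr, TMM, robust quasi-likelihood F test, Benjamini-Hochberg adjusted p under 0.05), tested on simulated data beforehand; the SE is the fold change over the square root of F. Log2 CPM used a prior count of 2. Alternatives included DESeq2 1.42.0.

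Deviations from the line means had correlations of 0.218, 0.111 and 0.131 between same-numbered libraries of the lines, for replicates 1 to 3. Between libraries of unlike number these correlations were -0.228 to 0.107. Each same-number correlation was above every unlike-number one, though at the nearest by only 0.111 against 0.107. Whether the libraries were paired by replicate number was not tested, and the labels state no pairing. The main fit and the exact permutation tests took the libraries as unpaired. A fit with the replicate number as a block was run as an alternative. No libraries were duplicates: between replicates of a line, chi-square per degree of freedom was 11.2 or more.

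The members, lists and tests were chosen with earlier results of these data known. Genes named were the 4 members, rbcL, and the gene closest to each member, of which the 2 of highest correlation are printed. Of 29 symbols of C4 cycle, Calvin cycle and leaf cell type genes looked for in the RefSeq table (assembly Zm-B73-REFERENCE-NAM-5.0), 16 were in it and 1, rbcL, was tied to an identifier of the files, so no other pathway gene or cell type marker was examined.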

Additional observations from a re-analysis of the deposited data

How the results depend on the processing

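The 4 genes kept their direction and call under DESeq2, RLE, upper quartile and library size scaling, no filter on low counts, each strand column, the replicate block, each library left out, and B73 replicate 2 and W9706 replicate 1 left out together. With the replicate block the log2 fold changes were -0.97 for NADP-ME, -1.85 for PEPCK, -1.19 for ssu1 and -0.78 for ssu2, and 8047 genes differed in place of 7564; it changed no call of the 4 genes. Over all alternatives 5132 (without W9706 replicate 2) to 10787 (library size alone) genes differed. The largest edgeR adjusted p of any gene of the 4 was 0.0446, for PEPCK without B73 replicate 3. The log2 ratio of NADP-ME to ssu1, a difference of 0.21 that was not past a threshold, turned to -0.033 without B73 replicate 1, the library with the highest ssu1 level; leaving out 1 library gave -0.033 to 0.34. The exact tests of ratios cannot pass 0.05 with 3 libraries in each line, so their p-values say nothing of stability. The sign-flip test of the ratios within replicate pairs cannot fall under 0.25.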
